A study of Homo sapiens and Mus musculus and synthetic construct with 31 samples.

Results

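The human TSS sequences were 144-bp pieces of the human genome taken at transcription start sites (TSSs), each cloned next to a green fluorescent protein reporter and a transcribed barcode, and the same plasmid pool was tested in human and in mouse embryonic stem cells (ESCs). They were the wild-type sequences that the library index assigned to human TSSs, and per the study's methods they include human positions orthologous to mouse TSSs as well as TSSs used in human cells. The index held 6956 of them, of which 5964 kept at least 50% of their barcodes at 10 or more reads in the plasmid DNA and were measured here, out of 13469 measured sequences in all. Each TSS was designed with 2 tiles that share 30 bp. Tile 1 held the 114 bp before the TSS and the 30 bp after it, and tile 2 ended 84 bp before the TSS and began 228 bp before it.

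The human cells (hESCs) were HUES64, 1 established line grown without feeders in mTeSR1, with 3 passages as replicates and 3 Lipofectamine Stem transfections per passage, whose reads were summed. The mouse cells (mESCs) had been derived from blastocysts and were grown without feeders in 2i, with 3 passages as replicates and 1 Lipofectamine 2000 transfection each. Every fragment was therefore the same DNA in both hosts, and a difference between hosts is called a trans effect here. Species, line, medium and transfection reagent changed together, as did the plasmid dose per cell and the transfection of adherent or suspended cells. These cannot be told apart, and consecutive passages of a line measure only the spread between those cultures.

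In a massively parallel reporter assay, the RNA made from a barcode is compared with the number of plasmids that carry it, which gives a measure of how strongly the linked sequence drives transcription outside its chromosome. A promoter sequence carries its own start site, while an enhancer RNA (eRNA) start site lies in an enhancer, from which short unstable transcripts arise on both strands. Factors of the bZIP class, among them AP-1 (FOS and JUN dimers), CREB and ATF4, are signal- and stress-responsive activators that bind short palindrome-like sites. HUES64 in mTeSR1 represents the primed state of pluripotency and mouse ESCs in 2i the naive state, which share POU5F1, SOX2 and NANOG and differ in many other regulators. The study's methods describe cloning both with and without a minimal promoter, and the labels do not say which pool these libraries hold, so whether activity here reads promoter or enhancer function cannot be told apart.

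RNA libraries held 61362734 to 117103221 reads at indexed barcodes and the plasmid library 98438176, and a measured human sequence had a median of 12 barcodes and 6818 plasmid reads. Activity is the RNA reads of a sequence divided by its plasmid reads, set to 1 for the median of 1604 random sequences in each library. The Spearman correlation of activity over the 5964 human sequences ran from 0.89 to 0.95 between hESC passages and from 0.76 to 0.82 between mESC passages. RNA-seq of the same cells matched the labels at most markers. The core factors POU5F1, NANOG, SOX2, SALL4 and LIN28A were at 40.6 CPM (counts scaled to the same library total) or more in each of 12 hESC libraries and at 86.5 CPM or more in each of 6 mESC libraries. Naive markers ESRRB, KLF4 and TBX3 were at 3.87 CPM or less in hESCs and at 189 CPM or more in mESCs, while ZFP42, of the same list, was above 115 CPM in both. Primed markers FGF2, DUSP6 and SFRP2 were at 27.8 CPM or more in hESCs and at 6.97 CPM or less in mESCs. FGF2 had 0 reads in all 6 mESC libraries, which allows up to 0.199 CPM. Of the same list, ZIC2 was at 71.2 to 112 CPM in hESCs and at 24.4 to 36.3 CPM in mESCs. OTX2 did not separate the hosts, at 13.6 to 100 CPM (median 24.5) in hESCs and 28.1 to 69.3 CPM (median 63.8) in mESCs. The naive marker TFCP2L1 was at 7.99 to 14.1 CPM in hESCs and its mouse gene was not matched by symbol.

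The 8 sequences below are shown because the results turn on them. The first 4 were more active in mESCs, the next 3 were less active there, and the last overlaps the MIR4435-2HG sequence before it, holds no AP-1 site and was near the random sequences in both hosts. They are given 5′ to 3′ on the strand tested, as the index holds them and as the human genome GRCh37 (hg19) reads at that position. Capitals mark matches to any of the searched motifs that have at least 7 positions of which at most 1 is open, on either strand. The letters TGACTCA and TGAGTCA are the AP-1 site, TTGCATCA is the reverse complement of the ATF4 and C/EBP composite site TGATGCAA, ATTTGCAT is the POU octamer, GTAAACA a forkhead site, GTTGCCA an RFX site, TGGCAAC the reverse complement of that RFX site, CGCCCACGC the reverse complement of the EGR site, and the run ACATTCCAGACA joins a TEAD and a SMAD site that overlap.
SERTAD2 intron eRNA, chr2:64894181-64894324, plus strand: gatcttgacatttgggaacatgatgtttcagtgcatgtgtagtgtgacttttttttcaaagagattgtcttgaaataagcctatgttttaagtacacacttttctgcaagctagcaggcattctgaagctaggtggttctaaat
MALAT1 start, chr11:65265567-65265710, plus strand: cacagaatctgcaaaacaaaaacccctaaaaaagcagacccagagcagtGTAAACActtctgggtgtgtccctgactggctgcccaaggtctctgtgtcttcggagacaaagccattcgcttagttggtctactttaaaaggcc
AKR1B10 start, chr7:134212116-134212259, plus strand: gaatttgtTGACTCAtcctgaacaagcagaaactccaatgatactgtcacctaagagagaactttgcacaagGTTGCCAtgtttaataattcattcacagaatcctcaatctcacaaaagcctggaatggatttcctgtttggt
VTI1A intron, chr10:114492096-114492239, minus strand: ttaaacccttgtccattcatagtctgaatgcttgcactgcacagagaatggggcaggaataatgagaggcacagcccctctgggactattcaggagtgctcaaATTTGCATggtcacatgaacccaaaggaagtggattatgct
Chromosome 9 eRNA, chr9:110512138-110512281, plus strand: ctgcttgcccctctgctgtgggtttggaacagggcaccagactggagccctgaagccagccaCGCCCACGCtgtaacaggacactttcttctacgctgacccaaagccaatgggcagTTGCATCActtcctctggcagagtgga
MIR4435-2HG piece A, chr2:112252606-112252749, minus strand: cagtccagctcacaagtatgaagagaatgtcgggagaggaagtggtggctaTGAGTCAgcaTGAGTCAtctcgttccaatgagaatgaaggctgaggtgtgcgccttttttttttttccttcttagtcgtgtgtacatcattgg
CDH13 intron, chr16:82733463-82733606, minus strand: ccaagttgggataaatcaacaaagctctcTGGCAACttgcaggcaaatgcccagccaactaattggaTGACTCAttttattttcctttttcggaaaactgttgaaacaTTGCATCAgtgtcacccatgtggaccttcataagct
MIR4435-2HG piece B, chr2:112252535-112252678, minus strand: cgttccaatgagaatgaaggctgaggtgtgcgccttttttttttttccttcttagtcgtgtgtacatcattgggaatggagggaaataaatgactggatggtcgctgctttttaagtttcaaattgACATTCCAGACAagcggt

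The first question was how many human sequences differed in activity between the 2 hosts. Of the 5964 human sequences, 1222 (20.5%) were lower in mESCs and 248 (4.16%) were higher, at an adjusted p under 0.05 in edgeR's quasi-likelihood test over all 13469 sequences. Over all measured sequences the same calls were 17.6% lower and 4.57% higher, so the human shares lay close to those of the whole library. A 2-fold or larger change was called lower for 255 human sequences (4.28%, against 3.6% of all measured sequences) and higher for 20 (0.335%, against 0.483%). The calls fell in 884 and 220 of 2359 separate genomic loci, respectively, with 67 loci holding calls in both directions.

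The balance of the calls depended on the scale. Random sequences defined the scale used here, and the median log2 fold change of the human sequences (mESC over hESC) was -0.11, with the middle 50% between -0.42 and 0.12. TMM scaling, which assumes that most sequences do not differ, moved every log2 fold change up by 0.11 and DESeq2 size factors moved it up by 0.13. Under TMM, 458 human sequences were called higher and 972 lower, so that 32.0% of the calls were higher, against 16.9% on the random scale, and 82.9% of the calls made on the random scale were called in the same direction. Directions given below for medians between -0.13 and 0 therefore flip or vanish with the scaling, whereas the loci described for their large changes kept their direction. Among the 1604 random sequences themselves, which carried 3 barcodes each, 23 were called higher and 43 lower (4.11% in all).

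More human sequences counted as active in hESCs than in mESCs, by a rule that fewer random sequences also met in mESCs. A sequence was counted as active where it exceeded the 95th percentile of the random sequences in all 3 replicates, a level that lay between 2.16 and 2.41 for hESC passages and between 1.88 and 2.33 for mESC passages. By this count 1599 human sequences (26.8%) were active in hESCs and 1227 (20.6%) in mESCs, beside 2.68% and 1.31% of the random sequences. Both hosts shared 1162 active sequences, 437 were active by this rule in hESCs alone, 65 in mESCs alone and 4300 in neither. The order of activities was largely kept, with a Spearman correlation of 0.81 between the mean activities of the 1664 sequences active in either host, beside 0.96 to 0.98 between hESC passages and 0.96 to 0.97 between mESC passages of these same sequences. Among those 1664, 43.4% were called lower and 6.97% higher in mESCs.

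The share of calls differed by level of activity. In the quartile of human sequences with the lowest mean activity over the 6 libraries, 1.27% were called lower and 4.09% higher in mESCs. The share called lower was 7.38% in the next quartile, 34.9% in the one above it and 47.8% in the part of the top quartile below the highest decile, whose median activity was 4.06 in hESCs and 3.03 in mESCs. In the highest decile (597 sequences) the median activity was 9.86 in hESCs and 9.32 in mESCs, 24.3% were called lower and 10.4% higher. The median log2 fold change ran from 0.05 in the lowest quartile to -0.42 below the highest decile and was -0.07 in the highest decile. These classes were made from the same libraries as the fold changes, so the shares are a description.

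The human sequences with the highest activity in either host were far above the random median in both. The start of SNHG5, a host gene of small nucleolar RNAs, had the highest activity in both, with 54.5, 59.7 and 76.0 in the 3 hESC passages and 38.1, 33.7 and 51.5 in the 3 mESC passages. The hESC values all lay above the mESC values, and the log2 fold change was -0.63 ± 0.21 (SE, adjusted p = 0.029), a call that was lost in 4 of 18 alternative fits, up to an adjusted p of 0.23. RANBP6, which encodes an importin-like protein, followed in hESCs with 41.9, 43.5 and 49.0 beside 26.9, 22.6 and 36.0 in mESCs, and DPH5, an enzyme of diphthamide synthesis, with 37.1, 40.8 and 47.4 beside 19.3, 17.5 and 28.6. DPH5 was lower in mESCs (log2 fold change -0.94 ± 0.23, adjusted p = 0.0030) and became uncalled without mESC replicate 1 (adjusted p = 0.051), while RANBP6 stood at the threshold (-0.65 ± 0.24, adjusted p = 0.050). In mESCs SNHG5 was followed by RSL1D1-DT, a divergent long noncoding RNA, and NUP133, a nuclear pore subunit. RSL1D1-DT was at 25.4, 26.2 and 28.2 in hESCs and 39.5, 28.1 and 41.4 in mESCs (adjusted p = 0.12), and NUP133 was at 37.3, 36.8 and 41.1 in hESCs and 35.0, 26.5 and 44.9 in mESCs (adjusted p = 0.81).

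Of the 165 sequences at 10 times the random median or more in all 6 libraries, the 3 with the log2 fold change nearest to 0 were mRNA starts. FBXL20, an F-box protein gene, had mean activities of 13.3 ± 0.728 (hESC) and 13.3 ± 3.35 (mESC, SD, n = 3 each). CENPW, a kinetochore protein gene, had 19.0 ± 1.87 and 18.9 ± 6.23, and EIF4E2, a cap-binding protein gene, 16.5 ± 2.07 and 16.8 ± 3.00. Their log2 fold changes were 0.01 ± 0.17, -0.01 ± 0.21 and 0.02 ± 0.17 (SE), with 95% intervals, taken as normal from the SE, from -0.33 to 0.35, from -0.42 to 0.40 and from -0.32 to 0.36. Changes within those bounds could not be told from none.

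Of the 248 human sequences called higher in mESCs, 82 were active in both hosts, 34 in mESCs alone and 132 in neither. The largest rise was at an eRNA tile 2 in an intron of SERTAD2, on the opposite strand to that gene, printed first above. Its activity was 1.02, 0.748 and 0.71 in hESCs and 3.76, 4.05 and 3.92 in mESCs, with all 12 barcodes higher in mESCs (log2 fold change 2.24 ± 0.15, adjusted p = 2.9e-11). None of the marked motifs matched it, and its own tile 1, which shares 30 bp, was at 1.56 in hESCs and 1.38 in mESCs.

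A sequence at an annotated transcript start of MALAT1, an abundant nuclear long noncoding RNA, was at 1.37, 1.21 and 1.28 in hESCs and 3.73, 4.52 and 6.13 in mESCs. All 13 barcodes were higher in mESCs (log2 fold change 1.90 ± 0.15, adjusted p = 4.0e-10), and tile 2 of the same TSS, at 0.957 and 1.19, was not called. AKR1B10, an aldo-keto reductase gene, was at 1.14, 1.15 and 1.44 in hESCs and 3.29, 3.51 and 4.15 in mESCs (1.55 ± 0.14, adjusted p = 2.5e-09, 12 of 12 barcodes higher). Its tile 2 was also higher in mESCs (1.76 against 1.17, log2 fold change 0.59 ± 0.16, adjusted p = 0.0062). Both AKR1B10 tiles hold a TGACTCA in the bases they share, so an AP-1 match was present in sequences that rose as well as in those that fell.

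The VTI1A intron sequence, which lies opposite to that gene and holds a POU octamer, was at 1.14, 1.44 and 1.25 in hESCs and 3.43, 3.38 and 3.54 in mESCs (1.43 ± 0.13, adjusted p = 3.4e-09). A piece of the other strand that shares 111 bp with it was higher in mESCs as well, at 3.21 against 1.84 (0.80 ± 0.13, adjusted p = 3.2e-05). Over all 104 human sequences with the octamer letters ATGCNAAT the median log2 fold change was -0.07, with 5 called higher and 16 lower (4.81% and 15.4%, beside 4.16% and 20.5% of all human sequences).

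The other 4 loci with the largest rises were GMCL1, which encodes a BTB-domain protein, an eRNA in an intron of GPRIN3, an intronic sequence of LINC01482 and a sequence within TRIM11 on the opposite strand. GMCL1 tile 2 was at 2.24, 3.35 and 3.06 beside 10.9, 7.45 and 11.8 in mESCs (1.80 ± 0.22, adjusted p = 3.8e-07), although 3 of its 10 barcodes went the other way. The GPRIN3 and LINC01482 sequences were between 0.826 and 1.07 in hESCs and between 2.4 and 3.38 in mESCs (1.66 ± 0.15 and 1.60 ± 0.14, adjusted p = 2.5e-09 and 2.8e-09). The TRIM11 sequence, at 0.569, 0.661 and 0.63 in hESCs and 2.69, 2.86 and 1.30 in mESCs (1.88 ± 0.58, adjusted p = 0.018), had the widest error, lost its call in 5 of 17 alternative fits: with hESC transfection 1 or 2 alone (1.14 and 1.73) and without hESC replicate 2, hESC replicate 3 or mESC replicate 2 (adjusted p = 0.064, 0.064 and 0.085).

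Sequences less active in mESCs included strong ones. The largest fall was at the chromosome 9 eRNA, an intergenic tile 1, where activity was 26.6, 25.4 and 25.4 in hESCs and 4.16, 3.81 and 3.57 in mESCs. All 12 barcodes were lower in mESCs (log2 fold change -2.75 ± 0.19, adjusted p = 2.9e-11). The tile of the opposite strand that shares 131 bp and the TGATGCAA match with it was at 29.1 ± 0.386 in hESCs and 5.69 ± 0.517 in mESCs (-2.36 ± 0.21, adjusted p = 3.9e-09). The pair of tile 2 sequences of this locus, which share 17 and 30 bp with it and lack the match, were between 0.833 and 1.12 in both hosts, and 1 of them was called higher in mESCs (0.43 ± 0.14, adjusted p = 0.026).

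At DLGAP1-AS2, a noncoding gene antisense to DLGAP1, the sequence with the largest fall was at 13.0, 12 and 14.0 in hESCs and 1.56, 1.94 and 2.57 in mESCs (-2.69 ± 0.16, adjusted p = 2.9e-12, 13 of 13 barcodes lower). The 6 sequences measured in this locus tile its exon, and those with 2 AP-1 sites had the highest activity in hESCs. The 3 with a pair of TGAGTCA and TGACTCA sites had hESC means of 7.07 to 13.0 and mESC means of 1.27 to 2.02, and all were called at least 2-fold lower. A sequence that shares 84 bp with it and keeps 1 of the sites, was at 1.34 ± 0.0957 in hESCs and 1.37 ± 0.239 in mESCs, and both sequences without a site were between 1.19 and 1.65 in both hosts, none of them called.

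MIR4435-2HG, a microRNA host gene, was covered by 14 overlapping sequences. Piece A holds TGAGTCA in 2 copies and was at 18.2, 18.3 and 20.5 in hESCs and 2.95, 2.56 and 3.52 in mESCs (-2.66 ± 0.19, adjusted p = 4.4e-11, 13 of 13 barcodes lower). The 5 sequences with both copies had hESC means of 9.54 to 23.6 and mESC means of 3.01 to 6.65, and all were called at least 2-fold lower, with log2 fold changes from -2.66 to -1.10. The 9 sequences without them, piece B included, were between 0.694 and 1.94 in hESCs and between 0.627 and 1.5 in mESCs, with 1 called lower and 1 higher, neither by 2-fold. These sequences share bases and are not independent, and other bases change together with the sites, so the part of the sites was not tested.

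The remaining loci with the largest falls were active in hESCs and below the level counted as active in mESCs. The chromosome 9 eRNA and MIR4435-2HG piece A, in contrast, stayed above that level in mESCs. A noncoding exon on chromosome 18 with 1 TGAGTCA, listed as ENSG00000267279, was at 8.74, 10.9 and 11.2 in hESCs and 1.48, 1.69 and 1.58 in mESCs (-2.70 ± 0.15, adjusted p = 2.7e-12), and the 2 overlapping sequences that hold that site were lower as well, by -1.33 and -1.16 on the log2 scale. SERTAD4-AS1, also with 1 TGACTCA, was at 4.79, 6.41 and 6.35 in hESCs and 1.09, 0.892 and 0.775 in mESCs (-2.67 ± 0.16, adjusted p = 3.7e-12). Of the pair of overlapping sequences that hold its site, 1 that shares 113 bp was called lower (-1.94 ± 0.45, adjusted p = 0.0017) and 1 that shares 119 bp was not, at 2.09 in hESCs and 1.15 in mESCs (-0.86 ± 0.35, adjusted p = 0.084). The CDH13 intron sequence, which holds a TGACTCA and a TGATGCAA match, was at 5.61, 5.17 and 5.67 in hESCs and 1.05, 1.03 and 1.09 in mESCs (-2.38 ± 0.14, adjusted p = 3.5e-12). A piece of the other strand that shares 70 bp and the TGATGCAA match was near background in both hosts, at 1.18 and 0.831.

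Of these 8 loci, 5 held an AP-1 match in the named sequence, 2 held a TGATGCAA match and 2 held neither. Those without were a sequence opposite to IVNS1ABP on chromosome 1 with 1 GGGCGGG match, at 11.1, 11.7 and 13.1 in hESCs and 2.07, 1.63 and 2.12 in mESCs (-2.63 ± 0.16, adjusted p = 3.7e-12), and an intronic sequence of TRAM2-AS1, at 5.06, 6.94 and 6.50 in hESCs and 1.01, 1.48 and 0.929 in mESCs (-2.44 ± 0.16, adjusted p = 1.6e-11). Overlapping sequences of both loci were called lower too, by -1.43 and -1.38 on the log2 scale for those sharing 106 and 128 bp. That the 3 hESC values lay above the 3 mESC values was a condition for naming these 8 loci and is no result. Each call held in all 18 alternative fits, which reuse the same counts, as it did for the loci with the largest rises other than TRIM11.

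The 3 bZIP sites were then counted over all human sequences, on either strand. TGATGCAA, the ATF4 and C/EBP composite site, had the lowest median of the 34 motifs that matched at least 20 measured human sequences. Its 23 sequences, from 16 loci, had a median activity of 2.07, 1.94 and 1.91 in the hESC passages and 1.37, 1.12 and 1.28 in the mESC passages, with a median log2 fold change of -0.72. Of them 15 (65.2%) were called lower, 9 by at least 2-fold, and none higher (edgeR, also 0 at an unadjusted p under 0.05 and by DESeq2's Wald test), beside 20.5% and 4.16% of all human sequences. Under the 18 alternative fits that median stayed between -0.84 and -0.60. The 24 mouse TSS sequences with these letters had a median of -0.53, with 15 called lower and 1 higher. The 23 human sequences had a median hESC activity of 1.97 and include overlapping pieces of the chromosome 9 eRNA and CDH13 loci. In the third quartile by mean activity (median hESC activity 1.84) 34.9% of human sequences were called lower. Whether TGATGCAA sequences differed from others of like activity was not tested.

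The other motifs with the lowest medians were the E2F site TTTCCCGC (50 sequences, median log2 fold change -0.32, 16 called lower and 3 higher) and the cyclic AMP response element TGACGTNA (97 sequences, -0.31, 30 lower and 3 higher). The cyclic AMP element marked strong sequences, with medians of 5.00, 5.32 and 5.45 in the hESC passages and 3.22, 3.46 and 3.91 in the mESC passages, and 11 of its sequences fell at least 2-fold. E2F letters had a single sequence with a 2-fold fall. Over the 18 alternative fits the median ran from -0.43 to -0.19 for E2F and from -0.42 to -0.18 for the cyclic AMP element. Both sites sit in GC-rich sequences, with a median GC content of 65.3% and 62.5%, and the GC quartile that spans these values (59.7% to 66.7%) had a median of -0.18. Among human sequences with more CpGs than the median sequence, the median log2 fold change was -0.35 with the cyclic AMP element and -0.20 without it, and -0.31 with E2F letters and -0.21 without them. The shares called lower were 30.9% with the cyclic AMP element and 32.0% with E2F letters (median hESC activity 2.35). In the third quartile by mean activity (median hESC activity 1.84) 34.9% were called lower, with a median log2 fold change of -0.31. In the top quartile below the highest decile (4.06) these values were 47.8% and -0.42, and in the highest decile (9.86) 24.3% and -0.07. Whether either motif differed from sequences of like activity was not tested.

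At the other end were ESRR, the estrogen-related receptor site CAAGGTCA (40 sequences, median 0.10, 8 called higher and 5 lower), USF, the extended E-box GTCACGTG (55 sequences, 0.07, 11 higher and 5 lower) and the p53 site letters ACATGNCC (74 sequences, 0.04, 10 higher and 9 lower). The share called higher was 20% for ESRR and USF and 13.5% for p53, beside 4.16% of all human sequences and 4.57% of all measured sequences. The mouse TSS sequences with these letters had medians of 0.0041 for ESRR (34 sequences, 4 higher and 5 lower), -0.04 for USF (65 sequences, 11 higher and 10 lower) and 0.03 for p53 (64 sequences, 7 higher and 4 lower). USF sequences had medians of 2.94, 3.89 and 3.55 in the hESC passages and 2.53, 3.28 and 3.53 in the mESC passages, and ESRR sequences 1.16, 1.26 and 1.23 against 1.41, 1.29 and 1.35. The medians of these 3 motifs changed sign in some alternative fits, running from -0.03 to 0.22 for ESRR, from -0.08 to 0.20 for USF and from -0.07 to 0.16 for p53.

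AP-1 letters were more frequent and more mixed. The 230 human sequences with TGACTCA or TGAGTCA (3.86% of the human sequences) had a median log2 fold change of -0.22, with 84 (36.5%) called lower and 15 (6.52%) higher. With 1 match the median was -0.14 (210 sequences, 32.9% lower), and with 2 or more it was -0.61 (20 sequences from 11 loci, 75% lower), of which 8 came from DLGAP1-AS2 and MIR4435-2HG and without which 7 of 12 (58.3%) were called lower, with a median of -0.48. The 86 sequences with TGAATCA or TGATTCA alone, which differ from the AP-1 site in the centre base, had a median of -0.08 with 16.3% called lower. This split by copies and by centre base was made after the values were seen.

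The AP-1 sequences were also compared with others of like activity. In the highest decile by mean activity, 11 of 19 AP-1 sequences (57.9%) were called lower, with a median of -0.84, beside 23.2% and -0.07 for the 578 without the site. These 19 came from 11 loci, and 7 of them were overlapping pieces of DLGAP1-AS2 and MIR4435-2HG, all called lower. Without that pair of loci, a choice made after seeing the data, 4 of 12 (33.3%) were called lower, with a median of -0.14. With the pair kept, 25.0% of 60 sequences with the site were called lower in the second quartile, beside 6.64% without it. In the third quartile the shares were 47.9% of 73 and 34.3%. Below the highest decile, in the rest of the top quartile, they were 76.7% of 30 and 46.8%, with medians of -0.82 and -0.41. The shares called higher in these classes were 3.33%, 6.85% and 13.3% with the site and 2.73%, 2.96% and 3.82% without it. In the lowest quartile, none of 48 was called lower by edgeR (2 at an unadjusted p under 0.05, and 1 by DESeq2's Wald test) and 2 were called higher. Of the 255 human sequences with a called fall of at least 2-fold, 13.3% held TGACTCA or TGAGTCA, 4.31% TGACGTNA and 3.53% TGATGCAA, and 20.4% held at least 1 of these, beside 5.78% of all human sequences. Conversely 15.1% of the 345 sequences that held at least 1 fell by at least 2-fold. The most frequent motif, the SP and KLF site GGGCGGG, was in 19.2% of the 2-fold falls and in 17.5% of all human sequences. Most 2-fold falls thus held none of the 3 bZIP sites.

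For the share of all TSS sequences, human and mouse, that hold each of these letters, the values were 4.81% for TGANTCA, 1.61% for TGACGTNA, 0.396% for TGATGCAA, 0.717% for TTTCCCGC, 1.01% for GTCACGTG, 0.624% for CAAGGTCA and 1.16% for ACATGNCC. Random sequences held TGATGCAA in 0.499% and TGANTCA in 3.55% of cases, beside 0.386% and 5.30% of the human sequences. TGANTCA also covers TGAATCA and TGATTCA, so its shares are not those of TGACTCA or TGAGTCA. GTCACGTG contains the E-box CACGTG. A match is a description of letters and was not tested for binding.

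Calls were also more frequent in tile 1 than in tile 2. Tile 1, over the TSS, was active in 34.3% of sequences in hESCs and 26.1% in mESCs, and tile 2 in 19.6% and 15.2%. Of 2943 tile 1 sequences 24.8% were called lower and 4.49% higher in mESCs, and of 3021 tile 2 sequences 16.3% and 3.84%. The median log2 fold change was -0.15 for tile 1 and -0.08 for tile 2. Median hESC activity was 1.67 and 1.28, and the parts of tile and activity in the calls were not separated. At the 2608 TSSs with both tiles measured, both were called lower at 135, tile 1 alone at 489 and tile 2 alone at 258, and the tiles were called in opposite directions at 44. The Spearman correlation of the log2 fold changes of the 2 tiles was 0.09, across TSSs whose tiles share 30 bp.

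By the class that the study's list of regulatory elements gave, 24.5% of 1093 mRNA sequences, 24.1% of 1371 lncRNA sequences and 18.0% of 729 eRNA sequences were called lower, and 4.03%, 3.87% and 4.80% higher. The eRNA sequences were the weakest class, with median activities of 1.22 in hESCs and 1.15 in mESCs beside 2.14 and 1.68 for mRNA sequences. Among eRNAs 24.1% of 370 tile 1 and 11.7% of 359 tile 2 sequences were called lower, beside 26.1% and 23.1% among mRNAs, a difference between the classes that was not tested. A 2-fold fall was called for 29 of the eRNA tile 1 sequences and 37 of 521 mRNA tile 1 sequences. No class could be taken from the part of that list used here for 2325 sequences, of which 16.5% were called lower and 4.47% higher.

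Base composition varied with the calls. In the quartile of human sequences with the lowest GC content (19.4% to 49.3%), 8.62% were called lower and 4.18% higher, and the median activities were 1.06 (hESC) and 1.07 (mESC). In the 2 upper quartiles 28.3% and 25.0% were called lower, with medians of 1.98 and 2.22 in hESCs and 1.53 and 1.72 in mESCs. By CpG count the share called lower was 10.8% at 0 to 2 CpGs, 29.2% at 7 to 12 and 23.2% at 13 to 30. GC content and activity rose together, and their parts in the calls were not separated.

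Few starts of pluripotency genes were in the library, and their calls were few. Of the 7 sequences of GDF3, LIN28B, OTX2 and ZFP42, 2 were called lower in mESCs and none higher by edgeR, at an unadjusted p under 0.05 or by DESeq2's Wald test (28.6% lower, beside 20.5% of all human sequences). OTX2 tile 1, at the start of a homeobox gene of the primed state, was at 3.64, 3.78 and 3.95 in hESCs and 1.82, 1.69 and 1.77 in mESCs (-1.11 ± 0.13, adjusted p = 2.3e-07). ZFP42 tile 1, at the start of the gene that encodes REX1, was at 7.15, 7.19 and 7.49 in hESCs and 4.31, 4.44 and 5.47 in mESCs (-0.62 ± 0.15, adjusted p = 0.0021). GDF3, a TGF-β family ligand gene, stayed at 0.948 to 1.15 in both hosts, and LIN28B, which encodes an RNA-binding protein, at 1.13 to 1.63. Both OTX2 and ZFP42 calls also held under TMM.

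Stress-response and immediate early genes included CDKN1A and GADD45B, with 2 of their 4 sequences called lower and none higher by edgeR, at an unadjusted p under 0.05 or by DESeq2's Wald test. Among all human sequences 20.5% were called lower and 4.16% higher, and 4 sequences are too few to compare with these shares. CDKN1A tile 1, at the start of the gene for the cell cycle inhibitor p21, was at 22.7, 21.5 and 24.7 in hESCs and 7.72, 7.21 and 9.36 in mESCs (-1.51 ± 0.16, adjusted p = 4.2e-08), while its tile 2, at 2.39 and 2.23, was not called. GADD45B, a growth arrest gene, fell in tile 2 only by the test, from 1.78 ± 0.0439 to 1.08 ± 0.102. Both calls held under TMM.

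Groups of genes chosen by their symbols had shares on either side of those of all human sequences, 20.5% lower and 4.16% higher. Of 570 sequences at antisense genes 23.9% were called lower and 2.63% higher, of 259 at LINC genes 22.4% and 3.86%, of 41 at zinc finger genes 17.1% and 2.44%, and of 78 at microRNA host genes 29.5% and 5.13%. Among 11 sequences of 6 ribosomal protein genes, 3 (27.3%) were called lower and 1 (9.09%) higher, and RPL22L1 tile 1, the strongest of them, fell from 39.6 ± 1.8 to 25.2 ± 3.87 (-0.65 ± 0.19, adjusted p = 0.015). Among 11 histone gene sequences 4 (36.4%) were called lower and 1 (9.09%) higher. The 23 sequences of snoRNA host genes held changes in both directions, 4 lower (17.4%) and 2 higher (8.70%). SNHG17 tile 1 fell from 11.1 ± 0.885 to 3.11 ± 0.129 (-1.83 ± 0.17) and SNHG21 tile 1 rose from 10.4 ± 1.2 to 23.3 ± 5.3 (1.17 ± 0.19), with 3 against 3 values apart in both.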

How the data were processed

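Plasmid DNA and reporter RNA were sequenced at the barcodes, and the authors deposited reads per barcode as raw counts, not normalized, with an index of barcodes, sequences and hg19 positions (listed as other values: start and end coordinates, per the file headers). The submitters' processing notes name cutadapt and HISAT2 for the reads. RNA-seq files hold deposited gene counts from featureCounts 2.0.0, of which only markers were used, as CPM. Barcodes with at least 10 DNA counts were kept, and sequences keeping at least 50% of theirs (13 designed per TSS sequence). RNA and DNA counts were summed per sequence, the 3 hESC transfections of a passage were summed, and each RNA library was scaled to the median RNA/DNA ratio of the random sequences. The 3 mESC and 3 hESC passages were compared with edgeR 4.0.16 (quasi-likelihood, R 4.3.3) over all 13469 measured sequences, with Benjamini-Hochberg adjustment. It took the place of MPRAnalyze, the study's tool. The scale of each library was the offset, and no replicate block was used. The DNA count of a sequence was the same for both hosts and did not enter the fit. The fit was tested on simulated data, with 100 sequences changed per fold. It recovered 49% of the 1.5-fold and 88% of the 2-fold changes and called 0.075% of the unchanged sequences, so smaller changes can go uncalled. Alternatives changed the scaling, test (DESeq2 1.42.0), barcode and RNA filters, transfection used, replicate block and sequences fitted, and left out each replicate. A minimum of 50 DNA counts, dropped the TRIM11 sequence. Where a standard error is given with a fold change it is that of the fit. Human sequences overlapping on GRCh37 were joined into loci, and genes and exons came from GENCODE v44lift37.

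Named were, in each direction, the 8 loci with the largest change among called sequences whose groups did not overlap, with a mean activity of at least 2 in the higher host and at least 7 barcodes. The 3 strongest sequences per host, the 3 with the log2 fold change nearest to 0 among those at 10 or more in every library, the pluripotency and stress lists, and the 3 motifs at each end were also named, and the single ribosomal protein and snoRNA host genes in the text were picked after their values were seen. In all 40 motifs were searched, of which 6 matched fewer than 20 measured human sequences. Of the stress list, 1 gene is not reported here. The members and lists were chosen with earlier results of these data known. Reads carry no molecular identifiers, so counts are not independent molecules.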

Additional observations from a re-analysis of the deposited data

Results flagged for a closer look

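Over the 9 hESC transfections, 26 quantities were searched for a transfection that stood apart from the other 8 by Dixon's criterion, which chance meets in about 1 of 20 groups, and 3 met it. GMCL1 tile 2, among the largest rises in mESCs, was at 1.62 in 1 transfection of the first passage and at 2.80 to 3.86 in the others, all below the mESC values. The sequence opposite to IVNS1ABP, among the largest falls, was at 14.6 in 1 transfection of the third passage and at 11.2 to 12.9 in the others, all above the mESC values. FBXL20 tile 1, with a log2 fold change near 0, was at 12.4 in 1 transfection of the first passage and at 13.5 to 14.5 in the others. Barcodes outside the index held 15.4% to 17.1% of the reads of the RNA libraries and 25.4% of the plasmid reads and were not used here.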

How the results depend on the processing

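Of 287 values of the 16 sequences named for their large changes under the alternative fits, 282 kept their direction and call, 5 lost the call, all of the TRIM11 sequence, and none reversed. The count of human sequences called higher was 458 with TMM, 487 with DESeq2 size factors, 148 and 126 with hESC transfection 2 or 3 alone, and 151 to 255 when a replicate was left out, lowest without hESC replicate 2 (156 without hESC replicate 1). Those higher by 2-fold numbered 36 and 39 with TMM and DESeq2 size factors and 18 to 29 with a replicate left out, beside 911 to 1394 called lower and 237 to 310 lower by 2-fold. The median log2 fold change was -0.0058 with TMM, 0.011 with DESeq2 size factors, -0.063 on the total of the random sequences, -0.17 and -0.20 with hESC transfection 2 or 3 alone, and -0.14 to -0.10 with a replicate left out. The median hESC activity of 1.42 was 1.33 from medians of barcode ratios (1.18 in mESCs, from 1.26), 1.45 without a DNA minimum, 1.39 with a minimum of 50 DNA counts, 1.48, 1.49 and 1.51 with transfection 1, 2 or 3 alone, and 1.42 to 1.44 with a replicate left out (1.24 to 1.28 in mESCs). With the replicate number as a block, 289 were called higher and 1334 lower. Deviations of same-numbered samples correlated at 0.0187 to 0.0295, and those of differently numbered samples at -0.027 to 0.0049. Every sample correlated best with its own number, though weakly, and whether the numbers mark pairs was not tested. Values near 0 changed sign: CENPW was 0.092 with TMM, 0.11 with DESeq2 size factors and 0.038 on the random total, NUP133 0.0054 with DESeq2 size factors, FBXL20 -0.020 with the block and -0.031, -0.046 and -0.068 with transfections 1, 2 and 3 alone, and EIF4E2 -0.0044 and -0.10 with transfections 1 and 3 alone. With a replicate left out they ran from -0.31 to 0.14 for CENPW, -0.32 to 0.056 for NUP133, -0.21 to 0.14 for FBXL20 and -0.13 to 0.12 for EIF4E2. The causes were not tested. The replicate error limits mESC values more, with a median coefficient of variation over active sequences of 15.0% beside 8.82% in hESCs.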
